A study of Homo sapiens with 2 samples.

Results

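The 10 genes described here are DNMT3A, TET2, IDH1, IDH2, ASXL1, EZH2, KMT2A, KDM6A, BCOR and PHF6, regulators of DNA methylation and histone marks that are recurrently mutated or rearranged in myeloid leukemia. They were listed by name, with earlier results of these data known, and no measured value entered the rule. Each gene body of GENCODE release 44 was extended by 20 kb on both sides, and the LDB1 peaks sharing at least 1 base with it were taken. Of 11046 deposited peaks, 12 met this rule, and they fell at 5 of the 10 genes. The cells were NB4, a human acute promyelocytic leukemia line that carries the PML-RARA fusion. Chromatin was profiled by CUT&Tag, in which an antibody brings a transposase to its target so that nearby DNA is cut and tagged. Of the 2 libraries, the one made with the LDB1 antibody is labelled as LDB1 overexpression, and the one made with IgG as untreated, so antibody and treatment cannot be told apart. The description of the assay in the methods names NB4 cells and does not mention overexpression, so whether the peaks come from endogenous or overexpressed LDB1 is not settled by the sources used here. Neither had a replicate, so nothing was tested between them. For each peak only coordinates and length are given, without a height, the read depth is unknown, and each interval below is a Wilson 95% interval that covers counting error only.

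These genes act in linked layers. DNMT3A adds methyl groups to cytosine, TET2 oxidizes them, and mutant IDH1 or IDH2 makes a metabolite that blocks TET enzymes. EZH2 is the catalytic subunit of Polycomb repressive complex 2 and methylates histone H3 at lysine 27, a mark that KDM6A removes. BCOR belongs to a variant Polycomb complex, ASXL1 is the partner of the histone H2A deubiquitinase BAP1, and KMT2A writes the H3 lysine 4 mark. PHF6 is a nuclear zinc finger protein. LDB1 does not touch DNA by itself. Through LMO2 it is joined to GATA factors and to TAL1, which binds E-boxes, and in red cell precursors the complex links enhancers with promoters.

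The stretches below, read from the plus strand of hg38, are parts of the peaks that hold GATA sites, most with sites of other factors. Capitals mark the letters of the sites named for each stretch. A site on the minus strand appears as its reverse complement, so a GATA site may read TTATCT. In the composite element of the LDB1 complex, CTG stands 7 or 8 bases ahead of a GATA site. The whole ASXL1 peak, chr20:32355074-32355329, is shown because it was the only 1 of the 12 with a composite in the central 200 bp. Its capitals are the composite and an AP-1 site near either end. A CEBP match at 32355107 to 32355114, also in the central 200 bp, is left in lower case. The BCOR stretch, chrX:40117913-40118082, holds the other composite, away from the centre of its peak, with GATA, ETS, KLF and RUNX sites. The stretch of DNMT3A peak 1, chr2:25256666-25256751, is shown for 3 GATA sites that start 20 bases apart. They lie in a tandem repeat of near-identical units, 1 site in each, so they are not separately placed sites. That of DNMT3A peak 2, chr2:25227001-25227072, is shown for an E-box with 8 bases between it and a GATA site, followed by an AP-1 site.
ASXL1 peak 1: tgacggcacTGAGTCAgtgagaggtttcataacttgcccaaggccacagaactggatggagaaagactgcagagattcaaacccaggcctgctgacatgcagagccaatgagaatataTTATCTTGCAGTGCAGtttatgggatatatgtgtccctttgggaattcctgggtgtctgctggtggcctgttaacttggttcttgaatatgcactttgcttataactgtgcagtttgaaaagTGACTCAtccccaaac
BCOR peak 3: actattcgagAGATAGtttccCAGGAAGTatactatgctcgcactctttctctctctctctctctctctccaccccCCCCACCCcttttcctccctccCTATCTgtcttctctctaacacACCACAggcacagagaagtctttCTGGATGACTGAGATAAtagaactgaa
DNMT3A peak 1: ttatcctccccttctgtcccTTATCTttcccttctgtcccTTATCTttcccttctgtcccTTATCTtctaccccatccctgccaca
DNMT3A peak 2: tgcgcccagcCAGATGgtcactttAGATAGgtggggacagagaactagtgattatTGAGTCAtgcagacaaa

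The KDM6A and KMT2A stretches come from introns. KDM6A peak 1, chrX:44899105-44899146, and KDM6A peak 2, chrX:44915541-44915719, are shown because both hold a GATA site and at least 1 RUNX site. Between the GATA site and the nearest RUNX site there were 10 bases in peak 1 and 130 in peak 2. RUNX1 is a myeloid transcription factor and a partner of the same complex. The KMT2A stretch, chr11:118437534-118437658, holds a KLF and a GATA site just inside the gene, and part of it lies in an exon of the transcript KMT2A-215.
KDM6A peak 1: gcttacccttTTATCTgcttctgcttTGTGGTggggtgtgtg
KDM6A peak 2: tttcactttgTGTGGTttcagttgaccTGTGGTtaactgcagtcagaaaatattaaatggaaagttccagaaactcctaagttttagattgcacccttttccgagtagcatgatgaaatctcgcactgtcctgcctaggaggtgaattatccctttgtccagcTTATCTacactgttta
KMT2A peak 1: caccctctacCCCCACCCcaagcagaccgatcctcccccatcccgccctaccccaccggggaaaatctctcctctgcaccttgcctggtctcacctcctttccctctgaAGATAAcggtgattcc

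To place the genes among all others, the same search was made for every protein-coding gene. Results showed that 5 of the 10 genes (50%, interval 23.7 to 76.3%) had a peak, compared with 31.8% of 19970 protein-coding genes. Longer genes are searched over wider windows. Among the 10612 genes whose body was as long as one of the 10 or in between (19433 to 239592 bp), 34.5% had a peak, which lies within the interval. The 10 windows covered 1.37 Mb and held 8.77 peaks per Mb, and the windows of genes of like length held 6.82. The number per gene was 4 at DNMT3A, 3 at BCOR and at KDM6A, and 1 at ASXL1 and at KMT2A. TET2, IDH1, IDH2, EZH2 and PHF6 had none. At least 4 peaks were found at 5.31% of genes of like length, and at least 3 at 9.21%.

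**Figure D1:**
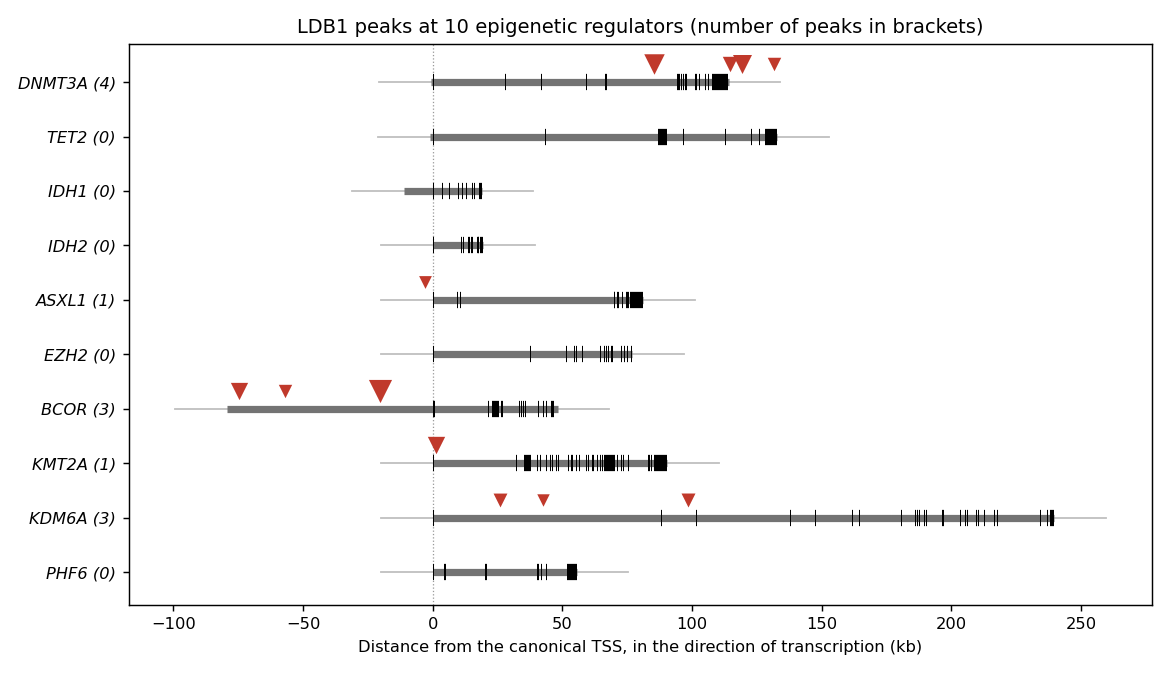
Position of the LDB1 peaks at the 10 genes, with the distance from the canonical TSS in kb on the x axis, drawn in the direction of transcription. Thick grey lines are gene bodies, thin lines the 20 kb on each side, black bars the exons of the canonical transcript, and red triangles the peak midpoints, larger for longer peaks. The 3 BCOR peaks stand left of the canonical TSS, 3 of the 4 DNMT3A peaks stand past the end of the gene, and TET2, IDH1, IDH2, EZH2 and PHF6 have no triangle.

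Among the DNA methylation genes, DNMT3A (ENSG00000119772.19, chromosome 2, 25227855 to 25342590, minus strand) carried all 4 peaks. Peak 1 (25256064 to 25256949, 886 bp) lay in intron 6 of 22 of the canonical transcript, with its midpoint 4195 bp upstream of the start of a shorter transcript, DNMT3A-203. Only 13.8% of all peaks were longer. The 3 GATA sites printed above lay 183, 203 and 223 bp to the right of its midpoint, and the central 200 bp held no site of any motif searched. The other DNMT3A peaks lay beyond the end of the gene. Peak 2 (25226893 to 25227330, 438 bp) had its midpoint 744 bp past the end, and it held an E-box, a GATA and an AP-1 site in its central 200 bp. Peak 3 (25222452 to 25223192, 741 bp) lay 5033 bp past the end and had an E-box and a KLF site at its centre, and its GATA site lay outside, at -113 bp from the midpoint. Peak 4 (25210156 to 25210457, 302 bp) lay 17549 bp past the end, and 5993 bp from the start of the non-coding gene LINC01381, with 2 GATA sites and 1 RUNX site at its centre. None of the 4 lay within 3 kb of an annotated TSS, and no DNMT3A exon was touched.

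TET2 (ENSG00000168769.14, chromosome 4, 105145875 to 105279816) had no peak. The nearest lay 181484 bp downstream in PPA2, a mitochondrial pyrophosphatase gene, and on the other side no peak was found for 2981573 bp. IDH1 (ENSG00000138413.14, chromosome 2, 208236229 to 208266074) was 104863 bp from its nearest peak, which lay in PTH2R. IDH2 (ENSG00000182054.10, chromosome 15, 90083045 to 90102477) was 40708 bp from an intergenic peak of 568 bp upstream of it. For both IDH genes the nearest peak stood on the upstream side.

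Of the Polycomb genes, ASXL1 (ENSG00000171456.22, chromosome 20, 32358330 to 32439319, plus strand) had 1 peak, among the shortest of the 12 at 256 bp, and 90.1% of all peaks were longer. It ended 3001 bp before the gene, and its midpoint lay 148 bp from the start of a non-coding gene, ENSG00000277692, whose exon it overlapped. The midpoint of the composite was 1 bp from the midpoint of the peak, and the AP-1 sites lay 115 bp to the left and 116 bp to the right of it. ASXL1 was the only 1 of the 10 genes with a composite in the central 200 bp of a peak, and 6.89% of protein-coding genes had one.

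BCOR (ENSG00000183337.18, chromosome X, 40049815 to 40177329, minus strand) had 3 peaks, all within the annotated body but upstream of the canonical TSS at 40097958. They lay where only long transcripts run, 3 or 4 of the 17 annotated for BCOR. Peak 3 (40117715 to 40118885), 20342 bp upstream of that TSS, was the longest of the 12 at 1171 bp, and 7.13% of all peaks were longer. It held 4 GATA sites, 2 RUNX sites and the composite, all outside its central 200 bp. Peak 1 (40172553 to 40173139, 587 bp) lay 902 bp from the start of the non-coding gene ENSG00000288856, and peak 2 (40154805 to 40155099, 295 bp) 8323 bp upstream of the transcript BCOR-207. These were the most GC-rich of the 12, with 63.7% and 68.5% G and C and CpG at 0.72 and 1.0 of the number that base content gives. They were also the only 2 of the 12 with no GATA site anywhere in the peak. EZH2 (ENSG00000106462.12, chromosome 7, 148807257 to 148884321) had none. The nearest was a peak of 270 bp that stood 29832 bp upstream, outside the 20 kb searched.

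KMT2A (ENSG00000118058.25, chromosome 11, 118436456 to 118526832, plus strand) was the only 1 of the 10 genes with a peak midpoint within 3 kb of its canonical TSS, where 6.21% of protein-coding genes had one. This peak (118437301 to 118437894, 594 bp) lay in intron 1 of 35, 1105 bp downstream of that TSS and 405 bp downstream of the start of another transcript. A read-through gene, ENSG00000285827, covers the same place. The promoter sequences of RefSeq, from 250 bases before to 50 after the start (GRCh38.p14), matched 9 of the 10 genes by symbol, all but PHF6. None of the 9 overlapped a peak, and 2.57% of such promoters of protein-coding genes did.

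KDM6A (ENSG00000147050.18, chromosome X, 44873188 to 45112779, plus strand) is the longest of the 10 genes and had 3 peaks, all in introns and 25985, 42426 and 98618 bp downstream of its TSS. They measured 329, 236 and 336 bp, so each was shorter than the median of all peaks, 451 bp, and 97.0% of all peaks were longer than the shortest of them. Peaks 1 and 2 lay in intron 2 of 29 and peak 3 in intron 3. All 3 had a GATA site in the central 200 bp. In peak 1 the GATA and RUNX sites had 10 bases between them, and in peak 2 a pair of RUNX sites had 11 bases between them. The central 31 bases of peak 3 occur 8 times in hg38, so its reads may come from more than one place. The centre of each of the other 11 peaks was found once. PHF6 (ENSG00000156531.18, chromosome X, 134373288 to 134428791), on the same chromosome, was 1093187 bp from its nearest peak, the farthest of the 10, and only 4.81% of protein-coding genes were farther from one. Chromosome X had fewer genes with a peak than the whole set, 20.5% of 859.

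The genes without a peak differed in how far from the list they stood. Measured from the gene body, EZH2 was 29.8 kb, IDH2 40.7 kb, IDH1 105 kb and TET2 181 kb from the nearest peak, and 63.3%, 58.5%, 40.5% and 29.0% of protein-coding genes were farther. EZH2, IDH2 and IDH1 thus had distances common among genes. The gap between the peaks on either side was 5.41 Mb around EZH2, 3.54 Mb around PHF6 and 3.30 Mb around TET2. It was 0.916 Mb around IDH2 and 0.410 Mb around IDH1. The median gap of the list was 30.5 kb. Gaps of over 3 Mb made up 1.70% of 11023 gaps but 32.7% of the chromosomes, and 11.1% of protein-coding genes lay in them, compared with 3 of the 10. The limit of 3 Mb was not planned and stands just below the gap around TET2, so the count of 3 depends on it and was not tested. The gap around EZH2 includes 50000 unknown bases. A gene without a listed peak is one where none passed the authors' threshold, and weaker signal cannot be seen in a list of peaks.

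**Figure D2:**
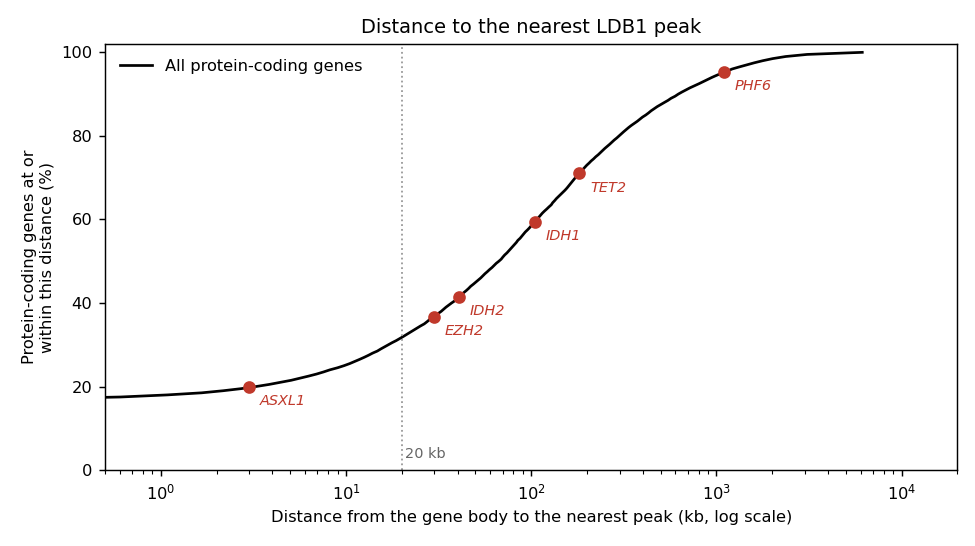
Share of protein-coding genes (y axis, %) whose body lies at or within a given distance of the nearest LDB1 peak (x axis, kb, log scale). The black line is all 19970 genes, red points are the 6 genes of the 10 with no peak in the body, and the dotted line is the 20 kb searched. ASXL1 stands inside the line at 3001 bp, and PHF6 is farthest out at 1093187 bp.

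The 12 peaks were of ordinary size. Their lengths ran from 236 to 1171 bp with a median of 387 bp, compared with 451 bp for all 11046 peaks (lower and upper quartiles 314 and 666 bp), and 5 of the 12 were longer than that median. Their median content of G and C was 50.5%, where all peaks had 51.4%. By position, 5 lay in introns of the canonical transcript, 3 upstream of it in the long BCOR transcripts, 3 past the end of DNMT3A and 1 upstream of ASXL1. Only 3 of the 12 (25%, 8.89 to 53.2%) had a midpoint within 3 kb of any annotated TSS, at KMT2A and at the non-coding genes beside ASXL1 and within BCOR. The share over all peaks was 35.6%, within that interval.

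Short motifs of GATA factors, E-box proteins and other transcription factors were searched on both strands in the central 200 bp. A match shows letters in the sequence, not a bound factor. A GATA site (AGATAA or AGATAG, and likewise with a leading T, TGATAA or TGATAG) was found in 7 of the 12 peaks (58.3%, 32 to 80.7%) and in 47.1% of all peaks. In windows 1000 bp to either side it was found in 4 of 24 for these peaks and in 27.6% for all peaks. The 7 were 2 at DNMT3A, 3 at KDM6A and those of ASXL1 and KMT2A. A composite was found in 1 of 12 (8.33%, 1.49 to 35.4%), where all peaks had 11.1% and their flanks 1.63%. In the central 100 bp 2 of the 12 peaks had a GATA site, and in the whole peak 10 of 12 did. The shares over all peaks were 28.2% and 71.4%.

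An E-box (CAGCTG or CAGATG) was found in 4 of 12 peaks, 3 of them at DNMT3A or BCOR, and in 33.8% of all peaks. A RUNX site (TGTGGT or TGCGGT) was found in 3 of 12 and in 20.5% of all peaks, and those 3 were KDM6A peaks 1 and 2 and DNMT3A peak 4. Each of them also had a GATA site, as did 7 of the 12 peaks and 47.1% of all peaks. The share among all peaks with a RUNX site was not counted. A KLF site (CCACACCC or CCCCACCC) was found in 2 of 12, compared with 10.5%. AP-1 (TGAGTCA or TGACTCA, which are reverse complements and were counted once) was found in 1 of 12, compared with 9.48%. CEBP (TTGCNNAA) was found in 1 of 12, the ASXL1 peak, compared with 7.44%. ETS (CAGGAAGT or CCGGAAGT) and NRF1 (GCGCATGC) were in 0 of 12, with an upper limit of 24.2%, and in 2.36% and 0.498% of all peaks. Peaks with none of these motifs numbered 3 of 12, and 21.2% of all peaks had none. For each motif the share over all peaks lay within the interval of the 12, so no difference from the rest of the list was detectable with this number of peaks.

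**Figure D3:**
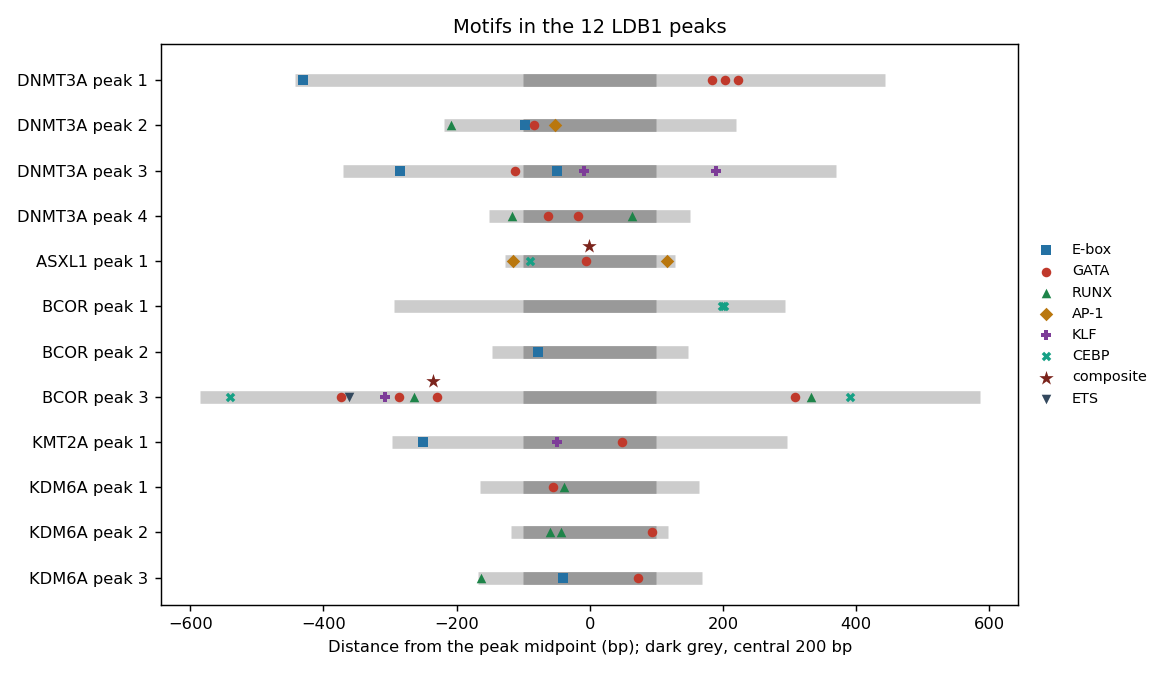
Motif sites along the 12 peaks, with the distance from the peak midpoint in bp on the x axis. Light grey bars are the peaks to scale, dark grey the central 200 bp, and each symbol is a site. The star of the composite stands 1 bp from the midpoint at ASXL1 and 236 bp to the left of it at BCOR peak 3, and BCOR peaks 1 and 2 have no GATA symbol.

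**Figure D4:**
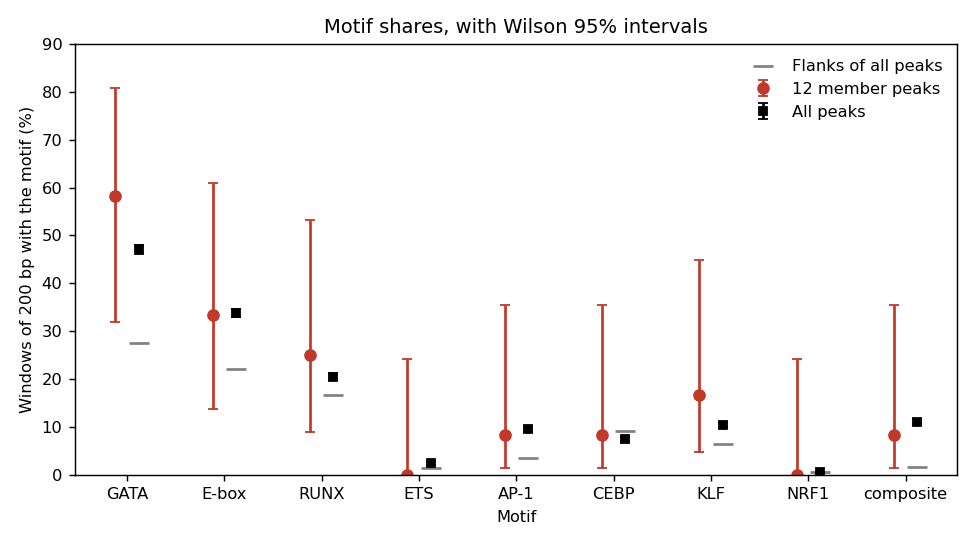
Share of 200 bp windows with each motif (%), for the 12 peaks (red circles) and all 11046 peaks (black squares), with Wilson 95% intervals, and for the flanks of all peaks (grey dashes, no interval). Every black square lies within the red interval of the same motif, from GATA at 47.1% to NRF1 at 0.498%.

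To set the 10 genes beside others of the same pathways, 32 related genes were searched in the same way. Of these, 15 (46.9%, 30.9 to 63.6%) had a peak, and they held 37 peaks in all. The share over all protein-coding genes, 31.8%, lies within that interval, and gene length was not matched here. A peak was found at 4 of 8 further genes of DNA methylation, 4 of 6 of Polycomb repressive complex 2, 1 of 8 of the variant Polycomb and BAP1 complexes, and 6 of 10 writers and erasers of H3 marks or their cofactors. The most peaks were at TET3 (11), JARID2 (7) and EZH1 (4), picked as the highest of the 32. At least as many were found at 0.235%, 1.19% and 4.53% of protein-coding genes. Among genes within the length range of the 10 the shares were 0.283%, 1.45% and 5.31%. JARID2 (275974 bp) is longer than that range.

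Relatives of the mutated genes often differed from them in number. TET2 had 0 peaks, while TET1, of much the same length at 134 kb, had 2 and TET3 (123 kb) had 11. TET3 and TET1 encode enzymes with the same reaction as TET2. DNMT3A had 4, the other de novo methyltransferase DNMT3B had 2 and the maintenance enzyme DNMT1 had 1. EZH2 had 0 and its relative EZH1 had 4, among them a peak of 1983 bp with its midpoint 673 bp downstream of the EZH1 TSS. KDM6A had 3 and KDM6B 0. BCOR had 3 and BCORL1 1, ASXL1 had 1 and both ASXL2 and ASXL3 had 0. IDH1, IDH2 and IDH3A had 0. In the KMT2 family KMT2A, KMT2B and KMT2C had 1 peak each and KMT2D had 0. Composites were found at 5 of the 32 related genes (DNMT1, TET1, TET3, EZH1 and BCORL1), beside 6.89% of protein-coding genes. These counts come from 1 library and were not tested.

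**Figure D5:**
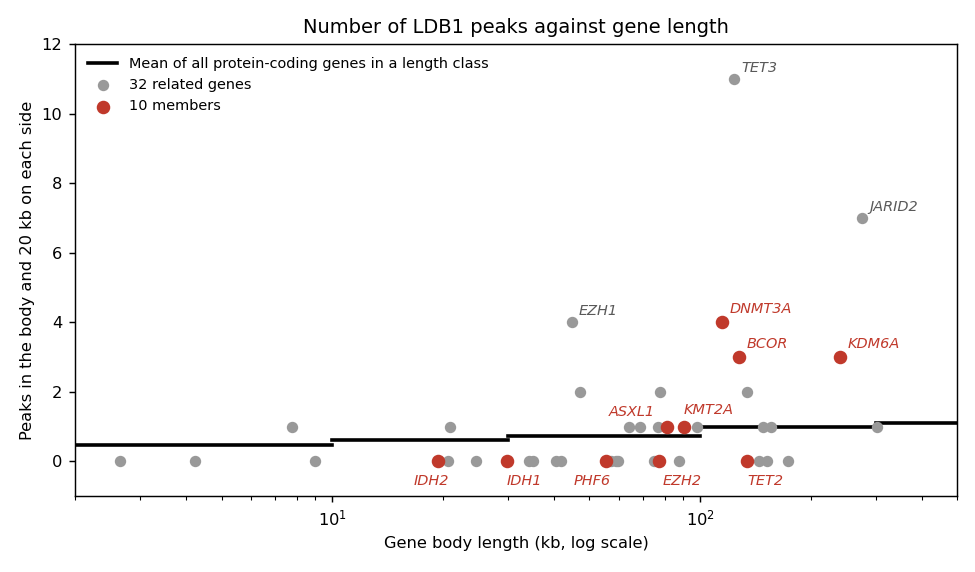
Number of LDB1 peaks in the gene body and 20 kb on each side (y axis) against the length of the body (x axis, kb, log scale). Red points are the 10 genes, grey points the 32 related genes, and black lines the mean of all protein-coding genes in 5 length classes, from 0.461 peaks up to 10 kb to 1.09 above 300 kb. DNMT3A, BCOR and KDM6A stand above the line of their class at 0.997, and TET2, in the same class, is at 0.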

How the data were processed

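The authors made 1 CUT&Tag library of NB4 cells per antibody (LDB1 and IgG), and paired-end reads were aligned to hg38 with Bowtie2 2.4.4. Per the methods and the submitters' processing notes, peaks were identified with MACS3 3.0 on fragments at a limit on the q-value. Use of IgG as control, and removal of duplicates or problem regions, are not given in the sources used here. In the deposited list each LDB1 peak has its first and last base, counted from 1, and its size in bp. No IgG peaks were analysed here.

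Genes came from GENCODE release 44 on chromosomes 1 to 22 and X (hg38). The peak midpoint stood in for a summit, and length for a score. Wilson 95% intervals were used for shares. Motif windows were 200 bp, with flanks 1000 bp away. Genes were named by the list, whatever their values, and the related genes by role. Members and lists were chosen with earlier results of these data known. Python 3.11.15, pandas 2.3.3, SciPy 1.17.1, pysam 0.24.0, numba 0.67.0 and matplotlib 3.10.9 were used, and the counting was checked on made-up peaks and sequences. Alternatives were other extensions, the longer peaks, midpoints, TSS definitions, motif windows and, added after seeing the data, canonical transcripts.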

Additional observations from a re-analysis of the deposited data

How the results depend on the processing

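No paired analysis was possible because each antibody had 1 library. With peaks at or above the median length, 30% of the 10 genes had a peak (DNMT3A, BCOR and KMT2A, where all protein-coding genes had 21.3%), with 5 peaks of median length 741 bp. A GATA site was then found in 20% and a composite in 0%, compared with 53.0% and 14.7% of all longer peaks. The fall to 5 peaks follows from leaving out shorter ones. The share with a GATA site was 58.3% in windows of 200 bp, 16.7% in 100 bp and 83.3% in the whole peak. All peaks had 47.1%, 28.2% and 71.4%, so the 12 stood below all peaks in the shortest window and above them in the others. A shorter window can only lower a share. Each share over all peaks lay within the interval of the 12, and the change of order was not tested. Near the canonical TSS of a protein-coding gene was 1 of the 12 peaks (8.33%, 1.49 to 35.4%), since the other TSS nearby belong to non-coding genes. The share of all peaks by this definition is not given here, so 8.33% cannot be called low or high. In the gene body alone, and with 3 kb around it, 40% had a peak (ASXL1 was lost), and with 50 kb 70% did (IDH2 and EZH2 were gained), where genes of like length had 21.8%, 24.2% and 45.8%. With the bodies of canonical transcripts, 10 peaks were left and BCOR kept 1 of 3. The remaining alternatives left the values within their interval or within 1.5 times. With 12 peaks from 1 library, these shares are imprecise, and unknown depth limits what the lack of a peak means.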

Other observations

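The peaks of TET3, the related gene with the most, were spread over its body. Of the 11, 9 had their midpoint in the gene, from 41406 to 99015 bp downstream of the TSS, and the others lay upstream at -705 and -14001 bp from the TSS. Composites were found at 73970520 to 73971298, 74047875 to 74048208 and 74083605 to 74084246 on chromosome 2. The longest peak of TET3 was 1151 bp. One of the 11 peaks, 74060588 to 74061091, has central bases that occur 799 times in hg38, so the reads there may come from elsewhere.

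JARID2, a cofactor of Polycomb repressive complex 2, had 7 peaks, all in its body from 53692 to 163299 bp downstream of the TSS. Of these, 4 had a GATA site in the central 200 bp and 0 a composite, where all peaks had 47.1% and 11.1%. At EZH1 the composite lay in a peak of 1890 bp that ended before the first base of the gene, past its 3′ end, on chromosome 17 from 42698376 to 42700265. The DNMT1 composite lay in a peak of 308 bp on chromosome 19, from 10223558 to 10223865, within the annotated body but upstream of the canonical TSS. These genes were chosen for their pathway and the values are from 1 library.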
